A study of Homo sapiens with 2 samples.

Results

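The 8 genes SLC26A3, SLC9A3, SLC9A2, SCNN1A, CFTR, SLC12A2, SLC4A4 and CA2 encode transporters, channels and an enzyme that move salt and bicarbonate across the epithelium of the colon. They were taken by their symbols from the array's annotation and held 22 of 54613 non-control probe sets, or 8 of 19775 annotated genes. Total RNA came from HCT15, an established human colorectal adenocarcinoma line, and each of its 2 cultures filled 1 array. The first culture was given ARID3B-Cas9, that is the Cas9 nuclease directed at ARID3B, and its genotype is labelled ARID3B knockout. The second is labelled control, and what it was given is not stated in the sources used here, nor whether the edited cells were 1 clone.

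Colonocytes absorb salt by pairing sodium-hydrogen exchangers (SLC9A3 and SLC9A2) with the chloride-bicarbonate exchanger SLC26A3 at the luminal membrane, and absorb further sodium through the epithelial sodium channel, of which SCNN1A is the alpha subunit. For secretion, SLC12A2 loads chloride across the basolateral membrane and SLC4A4 loads sodium with bicarbonate, while CFTR releases both anions into the lumen. The cytosolic carbonic anhydrase CA2 supplies protons and bicarbonate to both directions of transport.

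All values are deposited RMA values on the log2 scale, and a positive difference means higher in the knockout-labelled cells. A value was set against a floor of 4.59, the median over the non-control probe sets of both arrays. A value under this floor gives no measured fold, so a gene with 1 such value has only a bound, which sets its brighter value against the floor. There was no replicate and hence no test, and having a single array per group limits the precision. The scaled median absolute deviation of the differences among genes of like intensity (called the spread here) was 0.255 to 0.437 and serves as a yardstick only. The 8 genes were selected on the differences of these same arrays, so their values are a description. ARID3B had 1 probe set, which read 6.09 in the knockout-labelled cells and 5.12 in the control cells, against the direction that loss of the transcript would give. Directions therefore rest on the labels.

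The regions before the start sites of SLC26A3 and SLC4A4, the genes of the set that differed most, are shown because these genes differed in opposite directions, and that of SLC12A2 for comparison. Each is the 250 bases before an annotated start, 5′ to 3′, from RefSeq on build GRCh38.p14. Capitals mark 3 motifs, searched on both strands: GTTAAT, the core of sites for the hepatocyte nuclear factor HNF1, ATTAAA, an AT-rich word of the kind that ARID3 proteins bind, and TATATA, a form of the box at which transcription complexes assemble. ATTAAA read on the other strand ends in the same letters as the HNF1 word. One more motif, AGAACA, the core of steroid receptor sites, was absent from the 10 windows of the set that were searched and stands in 12.4% of all windows.
SLC26A3, chr7:107803224-107803473, minus strand: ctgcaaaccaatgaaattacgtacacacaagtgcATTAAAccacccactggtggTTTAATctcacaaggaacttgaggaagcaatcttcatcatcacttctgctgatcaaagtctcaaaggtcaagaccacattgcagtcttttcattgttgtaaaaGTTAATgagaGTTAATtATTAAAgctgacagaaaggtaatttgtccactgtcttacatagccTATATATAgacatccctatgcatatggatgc
SLC4A4, chr4:71062410-71062659, plus strand: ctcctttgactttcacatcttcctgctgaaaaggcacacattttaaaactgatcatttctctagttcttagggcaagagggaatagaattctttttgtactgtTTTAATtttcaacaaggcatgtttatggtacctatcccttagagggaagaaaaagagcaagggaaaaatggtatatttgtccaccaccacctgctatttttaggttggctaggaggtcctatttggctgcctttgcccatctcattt
SLC4A4, chr4:71186515-71186764, plus strand: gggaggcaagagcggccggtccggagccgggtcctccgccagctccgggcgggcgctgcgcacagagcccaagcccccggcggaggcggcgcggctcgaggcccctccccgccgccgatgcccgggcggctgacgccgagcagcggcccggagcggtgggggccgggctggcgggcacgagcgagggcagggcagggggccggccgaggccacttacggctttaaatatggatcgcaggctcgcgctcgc
SLC12A2, chr5:128083516-128083765, plus strand: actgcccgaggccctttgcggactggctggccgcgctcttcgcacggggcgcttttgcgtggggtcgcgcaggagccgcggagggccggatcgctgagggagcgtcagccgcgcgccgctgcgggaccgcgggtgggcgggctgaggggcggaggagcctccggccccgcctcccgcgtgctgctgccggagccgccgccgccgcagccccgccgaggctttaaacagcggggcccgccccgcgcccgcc

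The SLC26A3 window was AT-rich, with 37.6% G and C against a median of 58% over 35116 RefSeq windows. It held GTTAAT at 2 positions, ATTAAA at 3 and TATATA at 2 overlapping positions. At least 1 copy of these words stood in 6.23%, 11.2% and 3.73% of all windows, in that order. Only 8.94% of windows had a lower share of G and C. No share was taken among windows of like base composition, so no enrichment is read from these counts. SLC4A4 had 5 annotated windows, of which the most AT-rich and the most GC-rich are shown, at 39.2% and 78.8% G and C. Only the AT-rich one held any of the motifs, a single ATTAAA. The SLC12A2 window, at 79.6%, held none. The arrays do not tell which SLC4A4 start was in use, and a motif is a match of letters, not a shown binding site. Of the other windows, those of SLC9A2 and CFTR held none of the motifs and that of SLC9A3 held 1 ATTAAA. No window was available for SCNN1A, and CA2 was left out of the search.

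The set divided into bright, dim and crossing genes. Of the 22 probe sets, 6 were at or above the floor on both arrays, and they belonged to SCNN1A, SLC12A2 and CA2. Another 14 were under it on both arrays, 63.6% against 47.6% of all non-control probe sets. The remaining 2 crossed the floor in opposite directions, 1 of SLC26A3 and 1 of SLC4A4. Of all genes compared, 3.39% were at or above the floor on the knockout-labelled array alone and 3.09% on the control array alone. SLC9A3, SLC9A2 and CFTR were under the floor on both arrays in every probe set. The values closest to the floor from above were the 4.80 and 4.82 of SCNN1A probe set 217264_s_at, and those closest from below were the 4.12 and 4.24 of SLC4A4 probe set 210739_x_at.

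**Figure D1:**
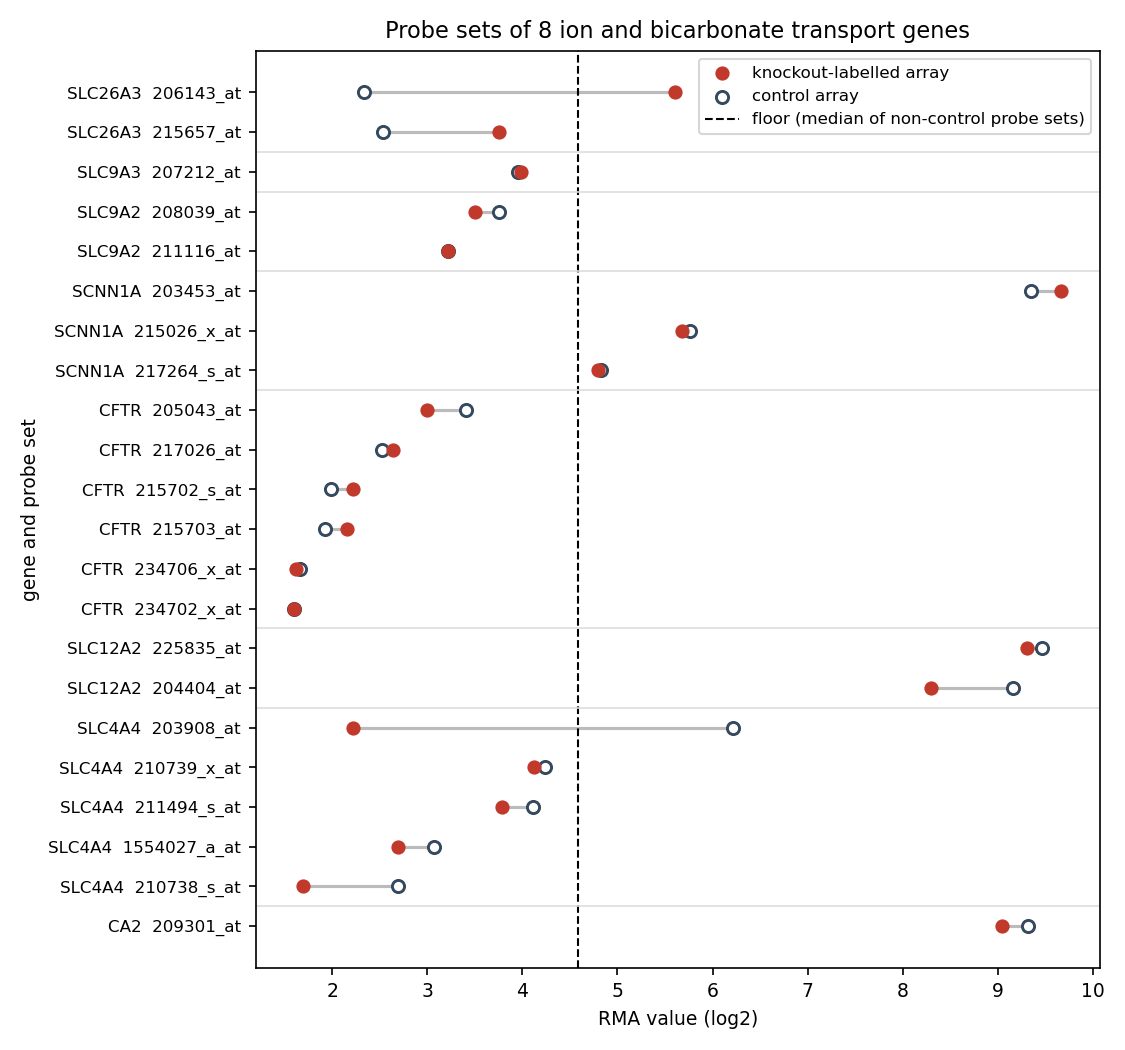
RMA values (log2, x axis) of all 22 probe sets of the 8 genes (y axis), with a filled point for the knockout-labelled array, an open point for the control array and a dashed line at the floor of 4.59. Only 1 probe set of SLC26A3 and 1 of SLC4A4 cross the line, SLC26A3 to the right and SLC4A4 to the left on the knockout-labelled array.

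Among the absorptive genes, SLC26A3, the exchanger that takes up chloride for bicarbonate, was detected above the floor on the knockout-labelled array alone. Probe set 206143_at read 5.61 on the knockout-labelled array and 2.34 on the control array. Its difference of 3.27 includes a dim value, and the bound was at least 2.02-fold higher. The second probe set, 215657_at, read 3.75 and 2.53 in the same order, a difference of 1.22 with both values under the floor. Both probe sets were therefore higher on the knockout-labelled array, but 1 of them lay wholly in the dim range. At or above the floor on the knockout-labelled array alone and past 2-fold by their bound were 8 of 12841 genes compared (0.0623%), SLC26A3 among them.

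The apical sodium-hydrogen exchangers that work beside SLC26A3 were too dim to compare. SLC9A3, the main such exchanger of the intestine, read 3.98 in the knockout-labelled cells and 3.96 in the control cells in its single probe set. SLC9A2, a second epithelial exchanger, read 3.51 in the knockout-labelled cells and 3.75 in the control cells in probe set 208039_at. Its other probe set, 211116_at, read 3.22 on both arrays. Identical values on both arrays occurred in 3678 non-control probe sets (6.73%), so such a difference of 0 is not a measurement of equality. For neither exchanger do these arrays show a level or a change.

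SCNN1A, the subunit that conducts sodium together with its beta and gamma partners, was well above the floor on both arrays. Probe set 203453_at read 9.67 in the knockout-labelled cells and 9.35 in the control cells, a difference of 0.32, under the spread of 0.366 at its intensity. A difference at least this large in either direction was found in 38.5% of all genes compared. The dimmer probe sets read 5.68 and 4.80 on the knockout-labelled array, against 5.76 and 4.82 on the control array, differences of -0.08 and -0.02. The 3 probe sets thus did not share a direction, and no difference in SCNN1A larger than the spread was seen. The other 3 subunit genes measured, SCNN1B, SCNN1G and SCNN1D, were under the floor on both arrays in their brightest probe sets.

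Among the secretory genes, SLC4A4, the basolateral sodium bicarbonate cotransporter, was above the floor on the control array alone. Probe set 203908_at read 2.22 on the knockout-labelled array and 6.21 on the control array. The difference was -3.99, and the bound was at least 3.08-fold lower. The other 4 probe sets were under the floor on both arrays, and all of them were lower on the knockout-labelled array, by differences of -0.99 to -0.11. Probe set 210738_s_at differed most among these, with 1.70 in the knockout-labelled cells and 2.69 in the control cells. At or above the floor on the control array alone and past 2-fold by their bound were 67 of 12841 genes (0.522%), SLC4A4 among them. As the mean of its 5 probe sets SLC4A4 differed by -1.16, with both means under the floor.

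SLC12A2, the sodium-potassium-chloride cotransporter that fills the cell with chloride for secretion, was bright on both arrays and lower on the knockout-labelled one in both probe sets. Probe set 225835_at read 9.31 in the knockout-labelled cells and 9.46 in the control cells, a difference of -0.16. Probe set 204404_at read 8.30 in the knockout-labelled cells and 9.16 in the control cells, a difference of -0.87. The first is within the spread of 0.366 and the second is not, so the size of the difference depends on the probe set. The mean of both was -0.51. CFTR, the luminal anion channel, was under the floor in all 6 probe sets, with no value above 3.41, and its brightest probe set differed by -0.40. Of its 6 probe sets, 3 were higher on the knockout-labelled array, 2 were lower and 1 was identical.

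CA2, which serves both directions of transport, had 1 probe set, and it read 9.04 in the knockout-labelled cells and 9.32 in the control cells. The difference of -0.28 was within the spread of 0.366, and 44.6% of genes compared differed at least as much in either direction.

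**Figure D2:**
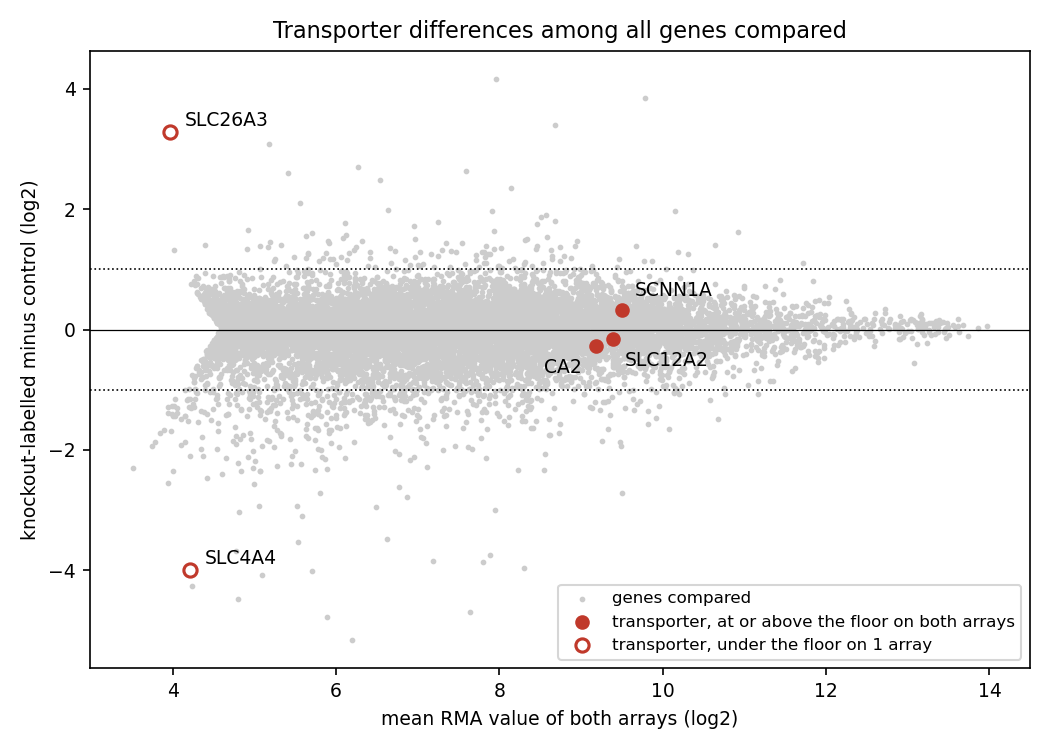
Difference of the knockout-labelled minus the control array (log2, y axis) against the mean of both arrays (log2, x axis) for all genes compared (grey) and the 5 transporter genes that reach the floor, with dotted lines at 2-fold. SCNN1A (0.32), SLC12A2 (-0.16) and CA2 (-0.28) lie inside the bulk of genes, and the open points of SLC26A3 and SLC4A4 stand apart at low mean intensity.

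Set side by side on the brightest probe set of each gene, absorptive and secretory transport differed through 1 gene each. Of the 5 genes that reached the floor, 1 was at least 2-fold higher on the knockout-labelled array (SLC26A3), against 1.02% of all genes compared with values under the floor raised to it, and 1 was at least 2-fold lower (SLC4A4), against 3.17%. By differences as deposited these shares of all genes were 1.05% and 3.79%. These 2 genes were among those known to differ most when the set was chosen, so nothing is read from the shares. As deposited, the median difference was 1.80 for the absorptive genes that reached the floor (SLC26A3 and SCNN1A). It was -2.07 for the secretory ones (SLC12A2 and SLC4A4), a gap of 3.87. Each median is the midpoint of 2 genes, 1 of them with a value under the floor, so this gap is not a measured size. Without SLC26A3 and SLC4A4 the gap was 0.48, between SCNN1A at 0.32 and SLC12A2 at -0.16. Each of these 2 differences lay within the spread of 0.366 at its intensity. The other SLC12A2 probe set, 204404_at, also above the floor on both arrays, differed by -0.87, outside the spread. With values under the floor raised to it, the gap was 1.56, and with no floor, over 4 absorptive and 3 secretory genes, it was 0.58.

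Transcripts named after the genes of the set were measured for SLC12A2 and SLC9A3, and all of them were lower on the knockout-labelled array. Of all genes compared, 45.1% were below 0, and nothing is read from so few transcripts. SLC12A2-DT, the divergent transcript of SLC12A2, was lower in all 4 probe sets, by differences of -1.35 to -0.25. The brightest read 4.88 in the knockout-labelled cells and 5.14 in the control cells (-0.25), and only this one was above the floor on both. The difference of -1.35 includes a value under the floor. SLC9A3-AS1, an antisense RNA, read 5.79 in the knockout-labelled cells and 6.49 in the control cells. SLC9A3-OT1 read 6.49 in the knockout-labelled cells and 7.26 in the control cells. These differences of -0.70 and -0.77 stood beside an SLC9A3 probe set that was under the floor on both arrays. On the chromosome, the protein-coding neighbours of SLC26A3 were CBLL1, a ubiquitin ligase, at 7.99 in the knockout-labelled cells and 7.06 in the control cells, and DLD, a mitochondrial dehydrogenase, at 11.27 and 10.91 in the same order. The measured neighbour of SLC4A4, the nucleoside kinase DCK, read 9.74 in the knockout-labelled cells and 9.73 in the control cells. Beside SCNN1A, TNFRSF1A read 8.84 in the knockout-labelled cells and 8.01 in the control cells, and LTBR read 7.54 and 7.34 in the same order. A higher neighbour was thus not particular to SLC26A3.

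The wider field of ion transport was described through 14 lists of 121 genes written down by role, of which 102 had a probe set and 69 reached the floor. Leaving out the set itself, 64 genes were compared. With values under the floor raised to it, 2 of them were at least 2-fold higher (NR3C2 and TSC22D3) and 3 at least 2-fold lower (FXYD3, CA13 and SGK1) on the knockout-labelled array, 7.81% in either direction, against 4.19% of all genes compared. By differences as deposited HNF4G was also lower, which made 9.38%, against 4.84% of all genes compared. The median of the 69 was 0.05, beside 0.04 over all genes compared. The lists were chosen with earlier results of these data known, so nothing is read from these shares. These counts are a description of 2 arrays.

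Within the families of the 2 crossing genes no other gene was past 2-fold in its brightest probe set. Of 4 SLC26 genes compared, SLC26A3 alone was past 2-fold in its brightest probe set. SLC26A2, a sulfate transporter of the colonic surface, was lower in all 3 probe sets, and its brightest read 7.62 in the knockout-labelled cells and 8.45 in the control cells (-0.83). A dimmer one was past 2-fold, at 6.10 in the knockout-labelled cells and 7.33 in the control cells (-1.23). SLC26A6, an anion exchanger, and SLC26A11 differed by 0.20 and 0.14. Of 7 SLC4 genes compared, SLC4A4 alone was past 2-fold in its brightest probe set. The electroneutral cotransporter SLC4A7 differed by 0.13 in its brightest probe set, which read 8.68 in the knockout-labelled cells and 8.55 in the control cells, but its 3 dimmer probe sets were higher by up to 1.34. The borate and proton transporter SLC4A11 read 6.23 in the knockout-labelled cells and 6.92 in the control cells (-0.69), and the anion exchanger SLC4A2 differed by -0.31. Of 4 SLC9 and 6 SLC12 genes compared none was past 2-fold, and their medians were 0.31 and -0.19.

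The sodium pump and the carbonic anhydrases were listed apart from the absorptive and secretory genes. FXYD3, a regulator of the sodium pump, read 5.70 in the knockout-labelled cells and 7.73 in the control cells in its brightest probe set (-2.02), whereas its other probe set read 5.29 on both. FXYD5, of the same family, was higher in both probe sets, with 9.22 in the knockout-labelled cells and 8.59 in the control cells in the brighter one. The pump's beta subunits ATP1B1 and ATP1B3 differed by 0.35 and -0.32. Among carbonic anhydrases 9 of 14 measured reached the floor, none was past 2-fold higher, and 1 was lower. That one, the cytosolic CA13, read 5.77 in the knockout-labelled cells and 6.94 in the control cells (-1.17), and its other probe set differed by -0.47.

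Of 5 genes for chloride and potassium secretion compared, none was past 2-fold in either direction. The chloride channel ANO1 differed by 0.08, the potassium channel subunits KCNQ1 and KCNE3 by 0.05 and -0.19, and KCNN4 was above the floor on the knockout-labelled array alone, at 4.68 against 4.22. The 6 compared receptors that regulate secretion, CASR among them, differed by -0.75 to -0.01 in their brightest probe sets. None of them was past 2-fold and 4 lay within the spread, while 45.1% of all genes compared were below 0. The muscarinic receptor CHRM3, at -0.07, was at 0.28 in another probe set that was above the floor on both arrays. The prostaglandin receptor PTGER4 read 5.05 in the knockout-labelled cells and 5.80 in the control cells (-0.75), with 0.06 in its other probe set, which was under the floor, and the VIP receptor VIPR1 differed by -0.34. Of 8 kinases, scaffolds and partners, 6 were above 0, against 52.9% of all genes compared, but 5 of the 8 lay within the spread and none was past 2-fold. STK39, the kinase that activates SLC12A2, read 8.40 in the knockout-labelled cells and 7.70 in the control cells (0.71). The membrane linker EZR was higher in all 5 probe sets, by 0.50 in its brightest.

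The aldosterone response list, which regulates the sodium channel, held genes past 2-fold in both directions, with a median of -0.01 over its 7 genes. The mineralocorticoid receptor NR3C2 read 6.61 in the knockout-labelled cells and 4.50 in the control cells, at least 4.05-fold higher by its bound. TSC22D3, a steroid-induced leucine zipper gene, read 8.46 in the knockout-labelled cells and 7.17 in the control cells (1.29). Its other probe sets were higher by 0.77 and 0.39, the latter with both values under the floor. SGK1, the kinase that keeps the sodium channel at the membrane, read 5.32 in the knockout-labelled cells and 6.59 in the control cells (-1.27). HSD11B2, the enzyme that shields the receptor from cortisol, was above the floor on the control array alone, at 4.56 in the knockout-labelled cells and 4.98 in the control cells. In the list of water, butyrate and glucose transport none of the 3 genes compared was past 2-fold, with AQP3 at -0.06, AQP11 at -0.24 and SLC5A8 at 0.12.

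**Figure D3:**
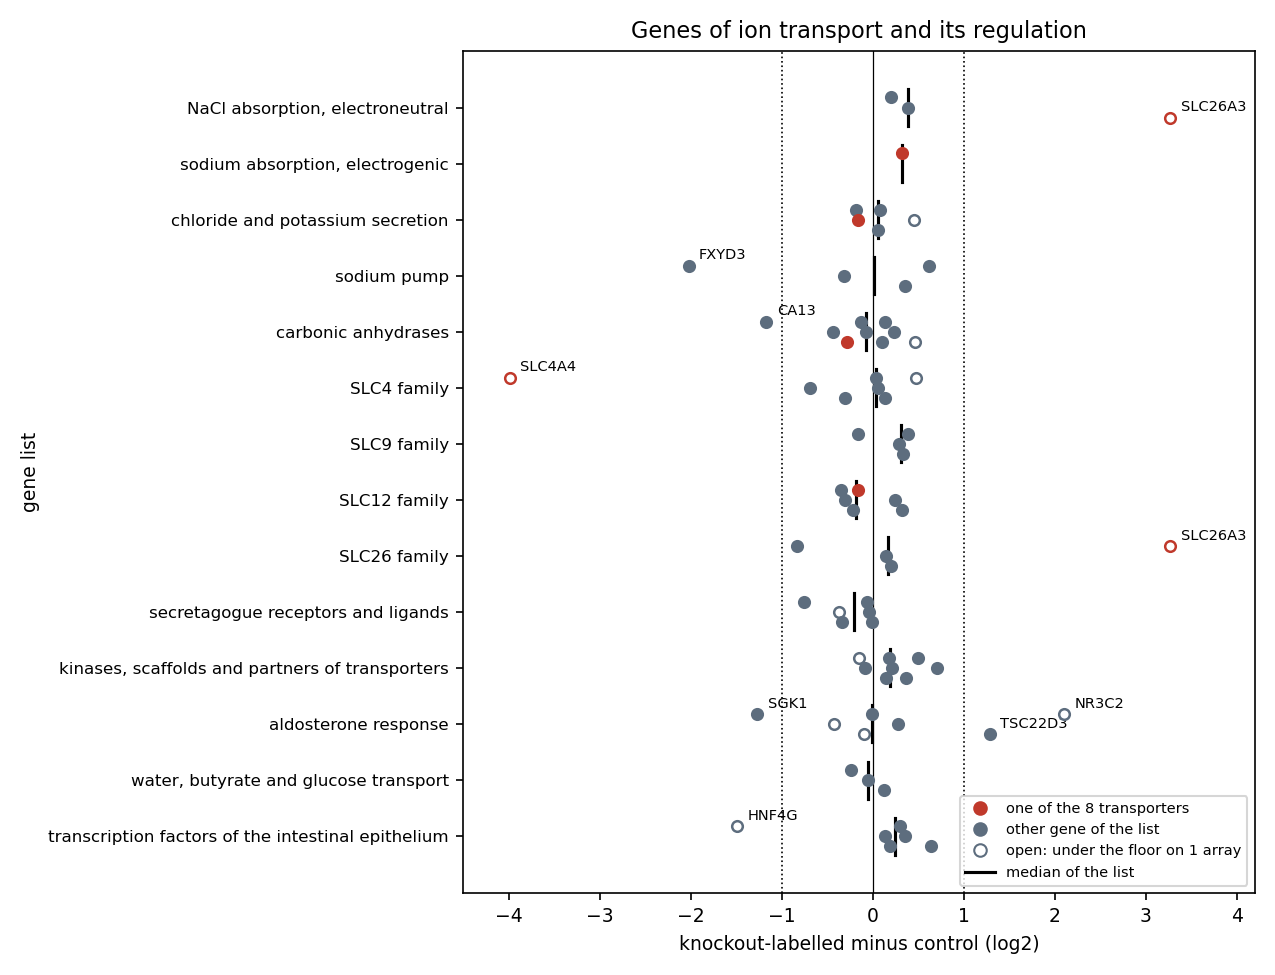
Difference of the knockout-labelled minus the control array (log2, x axis) for each gene compared in 14 lists (y axis), with the 8-gene set in red, other genes in grey, open points for genes under the floor on 1 array, a black bar at each list's median and dotted lines at 2-fold. The list medians lie between -0.20 and 0.39, and single named genes lie outside the dotted lines.

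Transcription factors of the intestinal epithelium were measured beside the transporters. Of 6 compared, 5 were above 0 on the brightest probe set, against 52.9% of all genes compared, but 4 of the 6 lay within the spread. None was past 2-fold higher. Only HNF4G was past 2-fold lower, by its difference as deposited (-1.49) but not by its bound. CDX2, which specifies intestinal identity, read 6.91 in the knockout-labelled cells and 6.27 in the control cells (0.64). Its other probe set read 4.61 and 3.86 in the same order, the first just above the floor and the second under it. HNF4G, a nuclear receptor of enterocytes, was above the floor on the control array alone, at 3.73 in the knockout-labelled cells and 5.22 in the control cells, at least 1.55-fold lower by its bound. GATA6 differed by 0.36 and KLF5 by 0.30.

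Markers of cell types were set against the floor. Of 12 colonic epithelial markers 9 were at or above the floor in the knockout-labelled cells and 8 in the control cells, with EPCAM at 12.23 and 12.19 in that order, whereas KRT20, LGALS4 and CDH17 were under it on both. Of 9 measured markers of the differentiated colonocyte, in which SLC26A3 is normally expressed, only CA4 and SLC26A2 reached the floor. SLC26A2 differed by -0.83. CA4 differed by -0.12, within the spread of 0.308 at its intensity, and by 0.05 in its other probe set, which was under the floor. Goblet cell markers reached the floor in 4 of 8 on each array. Fibroblast markers did so in 2 of 6 in the knockout-labelled cells and 1 of 6 in the control cells. Leukocyte markers did so in 2 of 5 and endothelial markers in 1 of 5 on each array. Over all genes 64.9% reached the floor on at least 1 array, so these counts alone do not show a cell type. The part of such markers in the differences of the set was not tested. The poly-A spike-ins, with 24 control probe sets, differed by a mean of -1.19. Scaling on them moves every difference up by that amount, so all directions given here compare a gene with the rest of the transcripts measured.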

How the data were processed

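Total RNA of 2 HCT15 cultures was hybridised to 1 Affymetrix array each, and the authors deposited log2 values from RMA, a tool named in the submitters' processing notes without a version. The sources used here do not say which arrays RMA took together. RMA sets arrays to a common distribution, so differences are relative, and it compresses differences of dim probe sets. Of 54613 non-control probe sets, 41091 had 1 gene symbol, 1801 several and 11721 none, and only the first kind was used. Symbols were matched by Entrez identifier (41037 found) to a RefSeq table of GRCh38.p14.

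The probe set brightest on average stood for its gene, which was compared when its higher value reached the floor, which kept 12841 of 19775 genes (64.9%). Spread was taken in 10 bins of mean intensity. The promoter windows came from RefSeq, with 10 windows for 6 of the genes. All 8 genes were named with every probe set. From each list up to 4 further genes were marked for naming by the largest absolute difference among those reaching the floor. Some of the marked genes are left out of the text. CASR, SCNN1B, SCNN1G and SCNN1D were named outside this rule. ARID3B, the transcripts named after the genes, the chromosomal neighbours and markers were named for their position or role, the neighbours after their values were seen. The genes and lists were chosen with earlier results of these data known. The alternatives are given in the closing section. The procedure was tested on simulated data. Python 3.11.15 with pandas 2.3.3, numpy 2.4.6 and statsmodels 0.14.6 was used.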

Additional observations from a re-analysis of the deposited data

How the results depend on the processing

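No paired analysis was possible because each group held 1 array. The differences of SLC26A3, SCNN1A, SLC12A2, SLC4A4 and CA2 moved by less than the spread with no floor, without probe sets marked as matching several transcripts, with a loess trend removed (span 0.3), with arrays centred on their median, and with scaling on 55 ribosomal protein genes. As the mean of its probe sets SLC26A3 differed by 2.24, and SLC4A4 no longer reached the floor. With values under the floor raised to it, SLC26A3 differed by 1.02 and SLC4A4 by -1.62. With 64 linear units added to both arrays they differed by 0.71 and -1.01. A floor at the 75th percentile (6.60) left out both. Scaled on the poly-A spike-ins, SLC26A3 differed by 4.46, SCNN1A by 1.51, SLC12A2 by 1.03, CA2 by 0.91 and SLC4A4 by -2.80, so that all but SLC4A4 were then higher on the knockout-labelled array. The count of genes of the set at least 2-fold higher, 1, became 0 with the higher floor and with the added units and 3 with spike-in scaling. The count lower, 1, became 0 with the higher floor and with the mean of probe sets. The gap between absorptive and secretory medians, 3.87, was 0.58 with no floor, 0.48 with the higher floor, 1.67 with the mean of probe sets, 1.56 with raised values, 1.08 with added units and 0.48 without SLC26A3 and SLC4A4, the last chosen after the data were seen. Over the listed transport genes, 3 differed by 2-fold or more upward and 5 downward as deposited, and 3 and 4 with values under the floor raised to it, which leaves out HNF4G. Those counts were 49 and 1 with spike-in scaling and 0 and 2 with added units, 6 and 8 at a 1.5-fold threshold, and 2 lower both with the higher floor and with the mean of probe sets. The medians of the 14 lists moved by less than the overall spread of 0.354 in all of them under 7 alternatives, in 13 without the marked probe sets, in 8 of 11 with the higher floor and in none with spike-in scaling. The 1.5-fold and 3-fold thresholds left the counts of the set at 1 and 1 as deposited, but at 3-fold with values under the floor raised to it, an alternative chosen after the data were seen, the counts were 0 higher and 1 lower.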
